A study of Mus musculus with 4 samples.

Results

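Bone morphogenetic protein (BMP) signalling was read through 10 genes in mouse embryonic stem cells that had or lacked Snai1, a zinc-finger repressor of epithelial genes. The genes were the ligand gene Bmp4 and 9 genes known to respond to BMP: Id1, Id2, Id3, Id4, Msx1, Msx2, Smad6, Smad7 and Bambi. They were chosen by name, with earlier results of these data known. Every probe set that the array annotation gives to 1 of these genes alone was read. That gave 17 of the 34945 probe sets naming a single gene, and 10 of 18193 genes. The 4 groups were Snai1 knockout teratomas, control teratomas, Snai1 knockout embryoid bodies and control embryoid bodies, with 1 Affymetrix array each. Embryoid bodies, clumps of stem cells left to differentiate on their own, were started in hanging drops, moved to suspension and sampled on day 5. Teratomas are tumours that mix several tissues, and here they formed after the cells were injected subcutaneously into hind limbs of nude males, 6 weeks old, and were sampled at week 6. The control genotype is labelled F/F. The sources used here do not give how Snai1 was removed, how many clones were used, or whether tumours or cultures were pooled. Nude mice lack a working thymus but keep B cells and myeloid cells, so teratoma RNA may include RNA of host cells.

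BMP ligands bind paired receptor kinases at the cell surface, which phosphorylate Smad1, Smad5 and Smad9. These pair with Smad4 and bind DNA in the nucleus. The Id genes are among their most direct targets, and Id proteins hold basic helix-loop-helix factors such as the E proteins away from DNA. Msx1 and Msx2 encode homeodomain repressors of limb, craniofacial and other mesenchyme. Smad6, Smad7 and Bambi encode inhibitors that the pathway switches on against itself: the first pair act inside the cell, and Bambi is a decoy receptor in the membrane. In the early embryo BMP4 drives ventral and posterior mesoderm, including blood, and holds back neural fate.

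Values are log2 expression values per probe set, which have no true zero, so a probe set counts as measured on an array when it reached the median of all non-control probe sets there. This floor was 5.04 in the knockout teratoma, 5.08 in the control teratoma, 4.73 in knockout embryoid bodies and 4.71 in control embryoid bodies. A call is a difference of at least 2-fold (1 on the log2 scale). Because each group has a single array, replicate error is unknown, no test was run, and no difference below has a replicate check. The nearest measure of error is how far probe sets of one gene disagree on a knockout difference, a pooled SD of 0.28 in teratomas and 0.29 in embryoid bodies, which leaves out variation between cultures and tumours. Snai1 itself read 3.44 in the knockout teratoma against 3.59 in the control teratoma, and 3.45 in knockout against 4.78 in control embryoid bodies, and only the last of these values reached the floor. Whether its probe set lies in the deleted part is unknown, and it checks the labels weakly in embryoid bodies and not at all in teratomas. Snai2, its close relative, read 7.15 and 8.43 in the knockout and control teratomas, and 9.07 and 10.59 in knockout and control embryoid bodies. Listed neuron markers were above the floor for 5 of 5 genes on both teratoma arrays, against 2 of 5 on both embryoid body arrays. Primitive blood markers were above it for 0 of 6 genes on either teratoma array, against 4 of 6 in knockout and 6 of 6 in control embryoid bodies.

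Of the 17 probe sets, 13 were at or above the floor on all 4 arrays, 3 on some of them and 1, the second Msx2 probe set, on none. All 10 genes were measured in embryoid bodies. In teratomas Msx2 lay below the floor on both arrays, which left 9. Smad6 in teratomas stood only just above it.

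**Figure D1:**
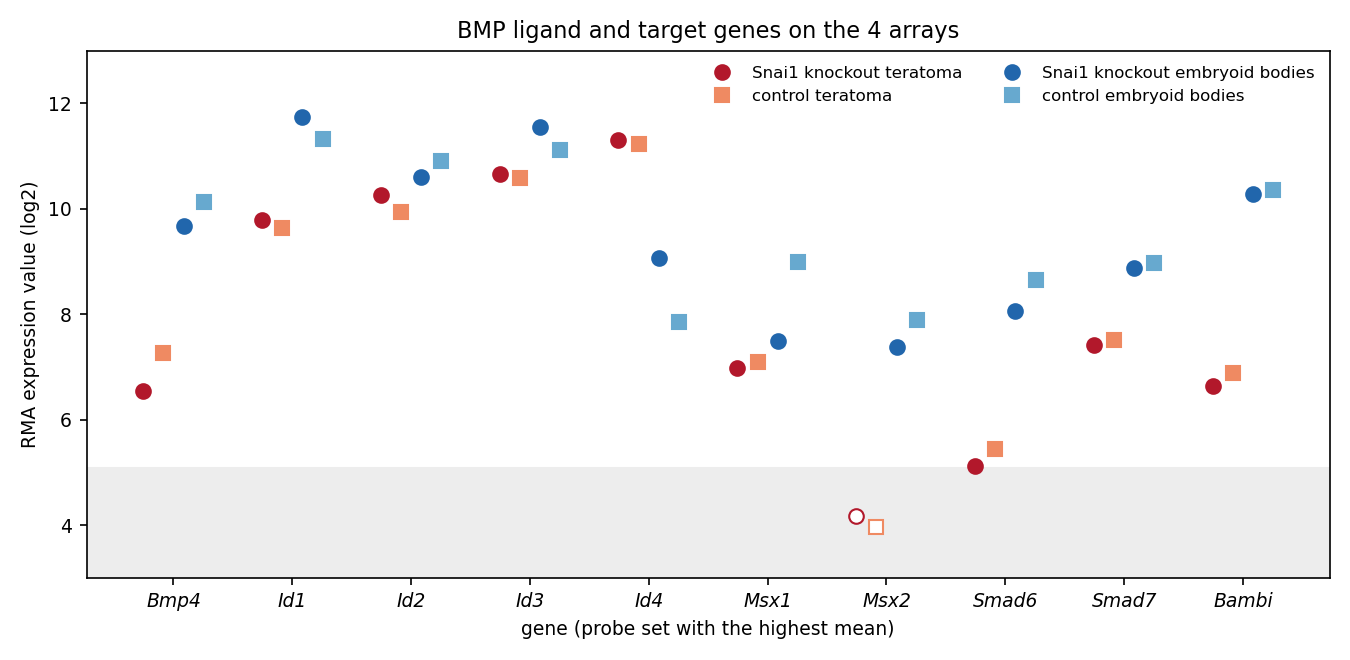
Log2 expression value (y axis) of each gene (x axis) on the 4 arrays, read by the probe set with the highest mean. Each point is 1 array, open points lie below that array's floor, and the grey band reaches up to the highest floor, 5.08. Id4 is higher in both teratomas than in both embryoid body arrays, and the other 9 genes are lower there. Levels of different genes cannot be compared on this scale.

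The first comparison asked how the ligand and its targets differed in day 5 embryoid bodies that lacked Snai1. Id4 was 2.32-fold higher and Msx1 2.83-fold lower in knockout embryoid bodies, and the other 8 genes differed by less than 2-fold. Across all 12255 genes measured in this comparison, 6.18% were called, 2.19% higher and 3.99% lower. The 10 genes had a median difference of -0.19, against 0.03 over all genes, with 3 above 0 and 7 below. Of the Id family only Id4 was called.

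Bmp4, the ligand gene, read 9.67 in knockout embryoid bodies and 10.14 in control embryoid bodies, a difference of -0.47. In teratomas it read 6.55 in the knockout and 7.27 in the control, a difference of -0.73. The knockout value was thus the lower one in both settings, by under 2-fold each time. In the teratoma comparison 2.93% of all genes differed by as much or more in that direction, against 11.4% in the embryoid body comparison.

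Among the Id genes, Id4 stood apart. It encodes the Id protein best known for its part in neural progenitors. Its 3 probe sets read 9.08, 7.38 and 6.94 in knockout embryoid bodies and 7.86, 6.05 and 6.00 in control embryoid bodies. Every one of them was higher in the knockout, by 1.21, 1.33 and 0.94 on the log2 scale, and 1.40% of all genes were at least as far above their control as the first of these. In teratomas the same probe sets read 11.30, 10.20 and 9.45 in the knockout and 11.23, 10.18 and 9.60 in the control. Those differences, 0.07, 0.01 and -0.15, lay within the spread between probe sets. The knockout difference of Id4 was thus 1.14 lower in teratomas than in embryoid bodies on its first probe set, and 1.32 and 1.09 lower on the others. With 1 array per group this difference between settings could not be tested.

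Id1, whose protein is a classical early readout of BMP, read 11.74 in knockout and 11.32 in control embryoid bodies, and 9.79 and 9.63 in the knockout and control teratomas. Id3, its close relative, read 11.56 and 11.12 in knockout and control embryoid bodies, and 10.66 and 10.58 in the knockout and control teratomas. Both lay above the control in embryoid bodies, by 0.42 and 0.44, and nearer to it in teratomas, at 0.16 and 0.08. Of all genes in embryoid bodies, 12.1% lay at least as far above their control as Id1 and 11.3% as far as Id3. Quantile normalization of the 4 columns turned the teratoma value of Id3 to -0.04 and that of Id4 to -0.04.

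Id2, which is expressed in many embryonic epithelia and in lymphoid cells, pointed in opposite directions in the 2 settings. It read 10.61 in knockout and 10.90 in control embryoid bodies, and 10.27 in the knockout and 9.94 in the control teratoma. The differences were 0.34 in teratomas and -0.29 in embryoid bodies, and a second probe set gave 0.25 and -0.34. The remaining, dim probe set read 5.40 in knockout and 4.95 in control embryoid bodies, a difference of 0.46, so the embryoid body direction rests on the pair of bright probe sets, both of which carry a suffix for shared sequence. Each of these differences is close to the spread between probe sets.

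Upstream sequence is shown for the 3 Id genes in the reference table used here and for Msx1, because Id4 and Msx1 hold the calls in embryoid bodies and the Id genes are the most direct targets. The sequences are the 250 bases before the annotated start, from RefSeq on build GRCm38.p6, read 5′ to 3′ on the gene's strand. They span chr12:25096093-25096342 on the minus strand for Id2, chr4:136143572-136143821 on the plus strand for Id3, chr13:48260866-48261115 on the plus strand for Id4 and chr5:37824586-37824835 on the minus strand for Msx1. Capitals mark matches, on either strand, to GGCGCC, a GC-rich element that Smad1 and Smad5 can bind, and to CAGGTG, an E-box that Snail-family and E proteins can bind. The motifs were picked after the values were seen, and they do not overlap each other in these windows.
Id2: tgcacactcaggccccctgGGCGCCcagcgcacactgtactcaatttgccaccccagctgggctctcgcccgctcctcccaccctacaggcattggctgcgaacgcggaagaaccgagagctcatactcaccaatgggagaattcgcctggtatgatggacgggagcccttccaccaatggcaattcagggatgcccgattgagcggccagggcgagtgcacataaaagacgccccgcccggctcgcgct
Id3: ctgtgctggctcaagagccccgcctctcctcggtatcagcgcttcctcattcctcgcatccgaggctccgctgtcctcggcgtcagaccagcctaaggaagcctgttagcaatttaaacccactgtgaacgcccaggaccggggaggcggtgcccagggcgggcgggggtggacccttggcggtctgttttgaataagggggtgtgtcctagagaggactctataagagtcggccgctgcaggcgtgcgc
Id4: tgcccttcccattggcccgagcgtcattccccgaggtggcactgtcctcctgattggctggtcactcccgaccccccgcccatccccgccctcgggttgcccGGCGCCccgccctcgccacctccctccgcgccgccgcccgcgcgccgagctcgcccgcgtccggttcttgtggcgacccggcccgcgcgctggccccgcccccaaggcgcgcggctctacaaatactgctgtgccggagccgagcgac
Msx1: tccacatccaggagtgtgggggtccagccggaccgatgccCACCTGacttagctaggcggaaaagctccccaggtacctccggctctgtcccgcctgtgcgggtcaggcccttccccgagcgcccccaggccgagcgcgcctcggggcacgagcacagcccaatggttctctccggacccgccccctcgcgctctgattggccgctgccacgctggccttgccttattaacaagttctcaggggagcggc

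GGCGCC stands 231 bases before the start of Id2 and 148 bases before that of Id4. CAGGTG, printed as CACCTG because it lies on the other strand, stands 210 bases before the start of Msx1. Of the 7 genes with a sequence used here, namely Bmp4, Id2, Id3, Id4, Msx1, Msx2 and Smad6, 2 held GGCGCC and 2 held CAGGTG, the second being Bmp4 at 177 bases. Among 32851 windows of the same length in the table, 9.59% held GGCGCC and 17.2% held CAGGTG. A match is a description of letters and says nothing of binding in these cells. Id4 has the most GC-rich window of the 7, at 75.6%.

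Msx1 was read by 2 probe sets that disagree in size. The brighter one, which carries a suffix for shared sequence, read 7.49 in knockout and 8.99 in control embryoid bodies, which is 2.83-fold lower, and 1.96% of all genes lay as far below their control. The other read 6.81 in knockout and 7.12 in control embryoid bodies, a difference of -0.31. The call for Msx1 therefore rests on 1 probe set: the mean of both gave -0.90. In teratomas the dimmer probe set differed more: it read 5.33 in the knockout against 6.09 in the control, a difference of -0.76, and the brighter one 6.99 against 7.09, a difference of -0.11. The knockout difference in teratomas minus that in embryoid bodies was 1.39 on the brighter and -0.46 on the dimmer one, so its sign is not settled.

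Msx2 read 7.38 in knockout and 7.89 in control embryoid bodies, a difference of -0.51. In teratomas it read 4.17 in the knockout and 3.97 in the control, both below the floor, so no difference is given. Its second probe set, between 2.84 and 3.45, lay below the floor on all 4 arrays.

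None of the inhibitors was called between knockout and control. Smad6, which encodes an inhibitory Smad that acts mainly on BMP receptors, read 8.07 in knockout and 8.64 in control embryoid bodies, and 5.12 and 5.45 in the knockout and control teratomas. The knockout value was the lower one in both settings, with differences of -0.33 in teratomas and -0.57 in embryoid bodies, in both cases under 2-fold. Smad7, whose protein also blocks the receptors of TGF-beta, read 8.88 and 8.97 in knockout and control embryoid bodies, and 7.41 and 7.52 in the knockout and control teratomas. Bambi read 10.27 and 10.37 in knockout and control embryoid bodies, and 6.65 and 6.89 in the knockout and control teratomas. Knockout and control arrays were close for this pair: Smad7 differed by -0.11 in teratomas and -0.09 in embryoid bodies, and Bambi by -0.24 and -0.09. A second Smad7 probe set, with shared sequence, differed by -0.38 in embryoid bodies. In teratomas neither array reached the floor with it.

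**Figure D2:**
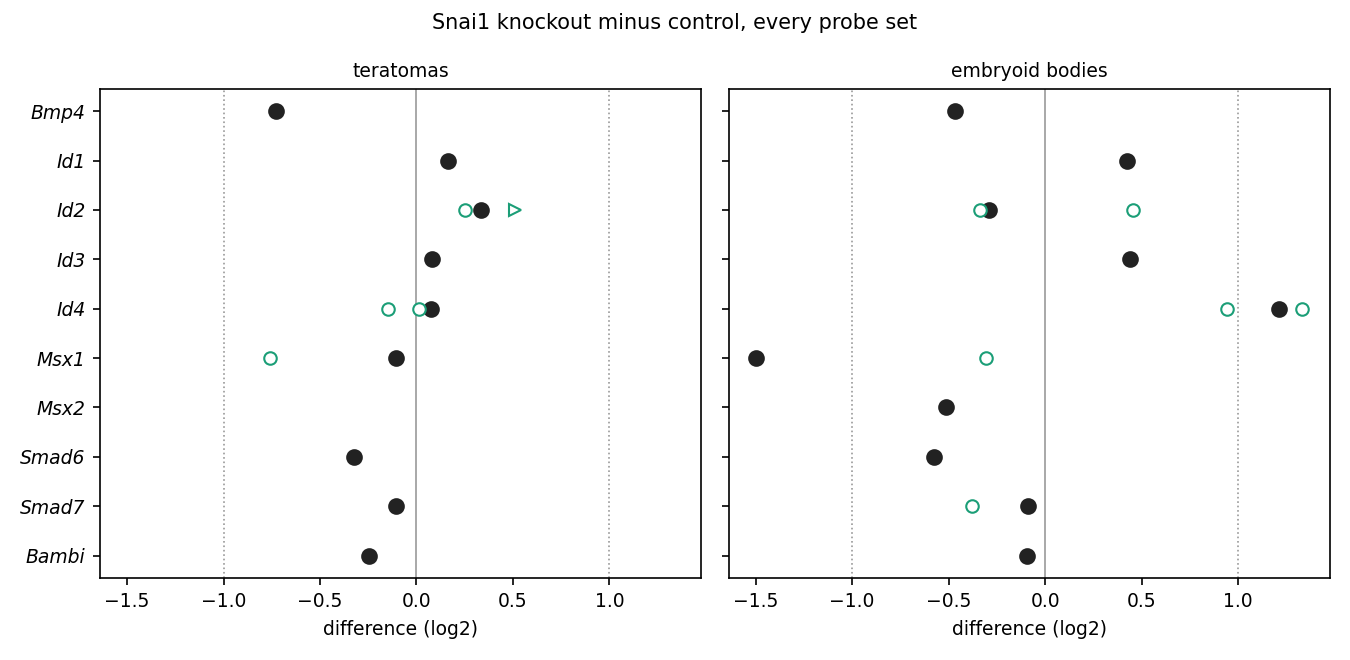
Snai1 knockout minus control on the log2 scale (x axis) for each gene (y axis), in teratomas on the left and embryoid bodies on the right. Filled points are the probe set with the highest mean, open green points the other probe sets, triangles are bounds, and dotted lines mark 2-fold. All 3 Id4 probe sets lie between 0.94 and 1.33 in embryoid bodies and between -0.15 and 0.07 in teratomas, and the Msx1 probe sets lie apart in both.

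In week 6 teratomas, where the second comparison asked the same question, none of the 9 measured genes was called, in either direction. Of all 12175 genes measured there, 4.34% were called, 3.26% higher and 1.08% lower. The 9 genes had a median difference of -0.11, against 0.07 over all genes, and ranged from -0.73 for Bmp4 to 0.34 for Id2. After quantile normalization of the 4 columns, the calls over all genes were 374 higher and 206 lower in place of 397 and 131.

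Markers of other cell types differed between the same embryoid body arrays. Mean levels given here cover every gene of a list on the array, also those below the floor. All 8 mesenchymal markers were called lower in knockout embryoid bodies, with a mean log2 level of 6.74 against 10.85 in control embryoid bodies. The same held for 6 of 6 primitive blood markers (7.25 against 10.83) and 5 of 6 endothelial markers (5.97 against 7.65). Visceral endoderm markers were called lower for 4 of 6 genes (7.96 against 10.10). These stand beside the lower values of Msx1, Msx2, Smad6 and Bmp4, and smaller differences in the same direction for Id2, Smad7 and Bambi. Epiblast markers were called higher for 4 of 5 genes (9.64 against 8.22) and definitive endoderm markers for 4 of 5 (9.21 against 7.54). Cer1, a called definitive endoderm marker, is also in the list of secreted antagonists and modulators read below. Among the members, Id4 was called higher, and Id1 and Id3 were higher by less than 2-fold. Neural progenitor markers, of which 3 of 6 were measured, had 1 called higher (5.46 against 5.04). Between the knockout and control teratomas, 4 of 6 measured leukocyte markers were called higher (7.94 against 6.12), 3 of 4 gut epithelium markers lower (5.74 against 7.14) and 2 of 8 mesenchymal markers lower (10.50 against 11.18). The part of any of these in the results was not tested. In bulk RNA, fewer cells of a type and less RNA per cell cannot be told apart.

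Beyond the 10 genes, the rest of the pathway was read from 6 lists. Over all genes measured in embryoid bodies, 2.19% were called higher and 3.99% lower in the knockout. In embryoid bodies, 2 of 10 measured secreted antagonists and modulators were called higher in the knockout and 0 lower. They were Bmper, an extracellular modulator of BMP in vessels, which read 9.59 in knockout and 7.79 in control embryoid bodies, and Cer1, an organizer-type inhibitor of BMP and Nodal, at 8.37 and 6.72. Chrd, a BMP-trapping inhibitor of the organizer, read 6.25 and 5.63, and Grem1, a related inhibitor, 5.76 and 5.13, both under 2-fold. Nog, another such inhibitor, lay below the floor on all 4 arrays. Other genes of the list went the other way: Fst differed by -0.61 and Nbl1 by -0.42. Of the 10 measured, 6 lay above 0 and 4 below, with a median of 0.18.

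Of the 10 other ligand genes on the array, 5 were measured. Bmp6 was the only one called in embryoid bodies: it read 4.36 in the knockout, below the floor, against 5.77 in the control, and was at least 2.05-fold lower. Bmp2 read 10.49 in knockout and 9.75 in control embryoid bodies, a difference of 0.74. Bmp7 read 8.04 and 7.23, a difference of 0.80, and its other measured probe sets gave between 1.35 and 1.47. The list thus held higher and lower members, with a median of 0.24. None of the 6 receptor genes measured in embryoid bodies was called, and the endothelial receptor gene Acvrl1 came nearest at -0.98, with 4.84 in the knockout against 5.82 in the control. Of the Smads that carry the signal, Smad1 differed by 0.54, Smad5 by 0.38 and Smad4 by -0.19, none of them called, and Smad9 lay below the floor.

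Other genes reported to respond to BMP split by direction in embryoid bodies, with 4 of 13 measured called higher and 2 lower. The higher ones were Hey1, a Notch and BMP target, at 8.91 in knockout against 7.61 in control embryoid bodies, Gata3, a trophoblast and surface ectoderm factor, at 7.82 against 6.52, Nkx2-5, a heart factor, at 7.45 against 6.20, and Prdm1, a germ cell and endoderm repressor, at 8.88 against 7.78. The lower ones were Hand1, a factor of lateral and extraembryonic mesoderm, at 6.99 against 8.86, and Tbx20, a heart factor, at 8.08 against 9.24. Another Hand1 probe set differed by -1.25, and other Tbx20 probe sets by -0.93 to -0.79, under 2-fold. The list therefore had no common direction, and its median was 0.28. Of the E proteins, Tcf3, Tcf4 and Tcf12, 0 of 3 were called in either setting.

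In teratomas these lists held 2 calls between the knockout and the control, 1 higher and 1 lower. Both were among the 10 measured secreted antagonists and modulators. Across all genes measured there, 4.34% were called, 3.26% higher and 1.08% lower. Nbl1, also known as DAN, read 8.75 in the knockout and 7.65 in the control. Sostdc1, an inhibitor of BMP and Wnt, read 5.72 in the knockout and 6.84 in the control. Another Sostdc1 probe set differed by -0.75, under 2-fold. Of the 11 other responsive genes measured there, 10 lay below 0 and 1 above, with a median of -0.36 and none called. Of all genes in that comparison 57.7% lay above 0, with a median of 0.07. Some other lists leaned the same way. Below 0 lay 9 of 10 secreted antagonists and modulators, 4 of 5 other ligands and 3 of 3 Smads. Their medians were -0.33, -0.24 and -0.16. Of the E proteins 2 of 3 lay below 0, with a median of -0.29. The lean was weaker for receptors, with 4 of 6 below 0 and a median of -0.05. Among the 9 measured members 5 lay below 0, with a median of -0.11.

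**Figure D3:**
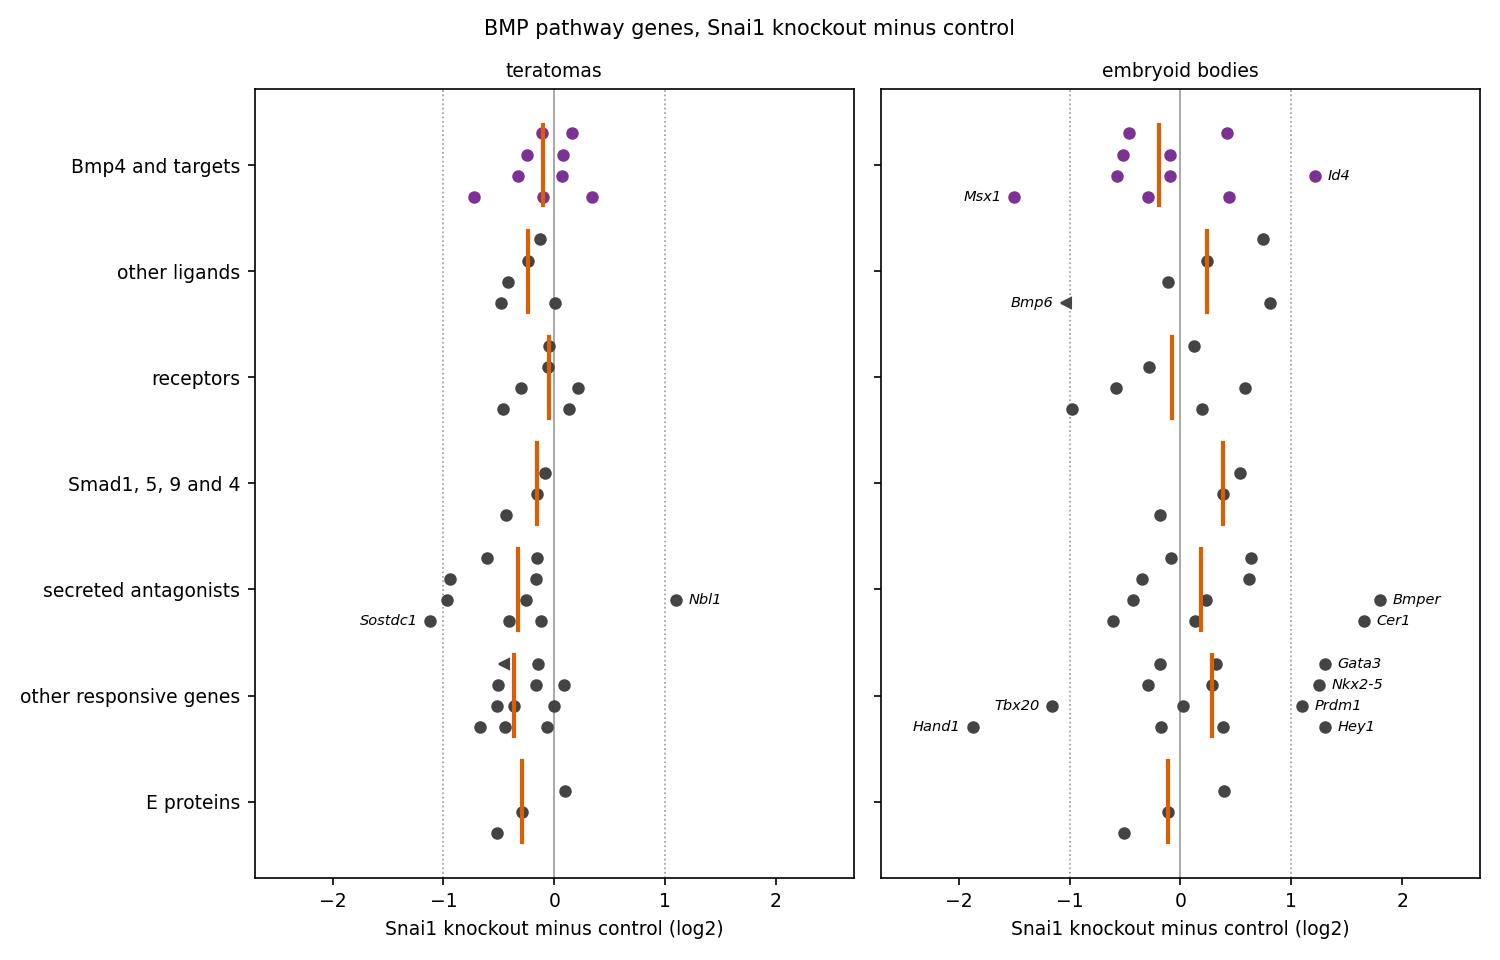
Snai1 knockout minus control on the log2 scale (x axis) for the genes of each list (y axis), in teratomas on the left and embryoid bodies on the right. Each point is 1 gene, triangles are bounds, the orange bar is the list's median, dotted lines mark 2-fold, and called genes are named. The called genes are Nbl1 and Sostdc1 in teratomas, and Id4, Msx1, Bmp6, Bmper, Cer1, Hey1, Gata3, Nkx2-5, Prdm1, Hand1 and Tbx20 in embryoid bodies.

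The largest differences among the 10 genes lay between teratomas and embryoid bodies. In knockout cells 6 of the 10 were called lower in the teratoma (Bmp4, Id1, Msx2, Smad6, Smad7 and Bambi) and 1, Id4, higher. In control cells 7 were called lower, the same 6 and Msx1, and Id4 was again higher. Calls are common here: of all genes measured, 40.6% were called in knockout cells, 20.3% higher and 20.3% lower, and 36.3% in control cells, 16.7% higher and 19.6% lower. The 10 genes had a median of -1.71 in knockout cells and -1.79 in control cells, against -0.18 and -0.22 over all genes. Setting, host, age and RNA extraction (Trizol for teratomas, columns for embryoid bodies) all changed together, so they cannot be told apart. Gapdh 3′ minus 5′ signal, a sign of RNA integrity, was 0.40 and 0.65 in the knockout and control teratomas against 0.10 and 0.17 in knockout and control embryoid bodies.

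Bambi was 12.4-fold lower in the knockout teratoma than in knockout embryoid bodies and 11.1-fold lower in the control pair. Of all genes, 0.372% in knockout cells and 0.398% in control cells lay at least as far down. Bmp4 was 8.72-fold lower in knockout cells and 7.28-fold lower in control cells, and Smad6 7.70-fold and 9.14-fold lower. Smad6 stood close to the floor in teratomas, and with the floor at the 65th percentile its differences were -1.62 in knockout and -2.24 in control cells, still past 2-fold. Msx2 lay below the floor in both teratomas and was at least 5.04-fold lower in knockout cells and at least 7.01-fold lower in control cells. Id1 was 3.86-fold and 3.22-fold lower, and Smad7 2.77-fold and 2.74-fold lower, in knockout and control cells. In all 6 genes both teratoma values lay below both embryoid body values. Some marker lists were lower too. In knockout cells, calls lower covered 5 of 5 epiblast, 5 of 5 definitive endoderm, 3 of 4 primitive blood and 3 of 6 visceral endoderm markers measured. In control cells they covered 4 of 5 epiblast, 6 of 6 primitive blood and 5 of 6 visceral endoderm markers. Of 4 definitive endoderm markers, 1 was called lower and 1 higher there. The part of these lists in the member results was not tested.

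Id4 ran the other way, at 11.30 and 11.23 in the knockout and control teratomas against 9.08 and 7.86 in knockout and control embryoid bodies. It was 4.68-fold higher in knockout cells and 10.3-fold higher in control cells, and its other probe sets differed by 2.51 and 2.81 in knockout cells and by 3.60 and 4.13 in control cells. All 5 neuron markers were called higher as well, in both genotypes. Their mean log2 level was 10.29 in the knockout and 9.12 in the control teratoma, against 4.28 in knockout and 4.17 in control embryoid bodies. The embryoid body means here include genes below the floor. Astrocyte and oligodendrocyte markers were called higher for 5 of 5 genes in both genotypes, at 9.91 and 8.66 in the knockout and control teratomas against 4.67 and 4.30 in knockout and control embryoid bodies. Other lists rose too. Neural progenitor markers were called higher for 4 of 6 genes in each genotype, with 1 called lower in knockout cells. Mesenchymal markers were called higher for 8 of 8 genes in knockout cells. In control cells 2 of 8 were called higher and 2 lower. The part of any of these lists in the Id4 result was not tested. Between the knockout and the control teratoma, 3 of 5 neuron markers and 3 of 5 glial markers were called higher, and Id4 differed by 0.07.

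Id2 and Id3 differed by less than 2-fold between settings, at -0.34 and -0.90 in knockout cells and -0.97 and -0.54 in control cells. Msx1 differed by -0.50 in knockout and -1.89 in control cells on its brighter probe set, and by -1.48 and -1.03 on the other. Which genotype shows the larger gap therefore depends on the probe set. Leukocyte markers, which can mark host cells, were called higher in teratomas for 6 of 6 genes measured in knockout cells and 4 of 5 in control cells, and how much of any member's RNA came from the host was not tested.

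**Figure D4:**
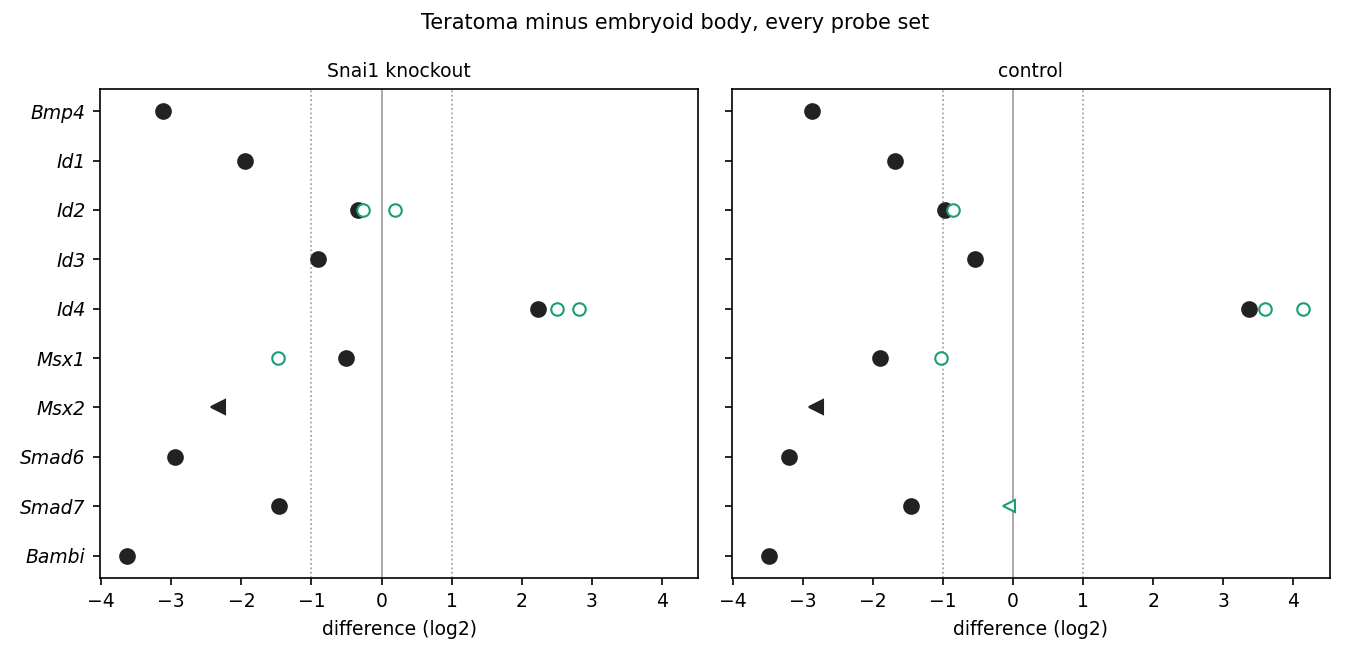
Teratoma minus embryoid body on the log2 scale (x axis) for each gene (y axis), in Snai1 knockout cells on the left and control cells on the right. Filled points are the probe set with the highest mean, open green points the other probe sets, triangles are bounds, and dotted lines mark 2-fold. The Id4 probe sets lie between 2.23 and 4.13 over both panels, and Bambi is drawn lowest, at -3.63 and -3.48, with Msx2 a bound.

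Across the rest of the pathway the settings also differed. Over all genes, 20.3% were called higher and 20.3% lower in knockout cells, and 16.7% higher and 19.6% lower in control cells. Of the 5 other ligand genes measured, 4 were called lower in knockout cells and 2 in control cells, and 0 higher. Bmp2 was 7.16-fold lower in the teratoma in knockout cells and 3.06-fold lower in control cells. Bmpr1b, a type I receptor gene, read 7.67 and 7.45 in the knockout and control teratomas against 4.73 and 4.42 in knockout and control embryoid bodies. Both embryoid body values lay below the floor, so Bmpr1b was higher by at least 7.65-fold in knockout and at least 6.70-fold in control cells. Bmpr2, the main type II receptor gene, was 3.03-fold and 2.56-fold higher in knockout and control cells, although another probe set differed by 0.11 and 0.05. Acvr2b, another receptor gene, was 2.66-fold lower in knockout cells and differed by -0.37 in control cells. Bmpr1a differed by -0.18 in knockout and 0.0006 in control cells. Its other probe sets gave -1.96 to -1.18 in knockout and -1.24 to -1.08 in control cells. Of the receptors measured, 2 of 6 were called higher and 1 lower in knockout cells. In control cells 3 of 7 were called higher and 0 lower. Smad1, Smad5 and Smad4 were not called in either genotype, although the other probe sets of Smad5 ranged from -1.18 to 0.14 in knockout cells and from -0.83 to 1.03 in control cells. Tcf4, an E protein gene, was 3.95-fold and 2.61-fold higher in knockout and control cells. Tcf3, another E protein gene, was 3.19-fold lower in knockout cells and differed by -0.76 in control cells. Its other probe sets gave between -1.44 and -1.29 in control cells. Of the secreted antagonists and modulators, 1 of 10 measured was called higher and 2 lower in knockout cells. In control cells 3 of 11 were called higher and 1 lower. Bmper was 9.56-fold and Cer1 8.49-fold lower in knockout cells, and Nbl1 7.15-fold higher. Of the other responsive genes, 0 of 14 measured were called higher and 6 lower in knockout cells. In control cells 2 of 13 were called higher and 5 lower.

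Among the 10 genes, the profiles of Bmp4 and Smad6 over the 4 arrays were the closest of the 45 pairs, at a Euclidean distance of 0.30 log2 units after each was centred on its own mean. Over all genes, the 4 nearest were sought for the 3 members with the widest range, among 12780 named genes, with values below an array's floor set to that floor. A gene below the floor in teratomas was therefore matched there by the floor and not by its own value. For Bambi they were Plp2, Podxl, Myl3 and Pkp2, at distances of 0.14 to 0.24, and Myl3 lay below the floor in both teratomas. Podxl, which encodes podocalyxin, read 7.95 and 8.20 in the knockout and control teratomas against 11.72 and 11.85 in knockout and control embryoid bodies. For Bmp4 they were Hnf4a, Ror2, Cdc42ep5 and Greb1, at 0.17 to 0.37, and Hnf4a, a factor of visceral endoderm and liver, read 4.75 and 5.60 in the knockout and control teratomas against 8.05 and 8.40 in knockout and control embryoid bodies. The 4.75 lay below the floor, so its rank rests on a floored value. For Smad6 they were Tmem88, Hpx, Igf2os and Clec1b, at 0.21 to 0.25. Hpx, Igf2os and Clec1b lay below the floor in both teratomas, so their distances and order are not measured there. Tmem88 read 7.36 and 7.51 in the knockout and control teratomas against 10.01 and 10.72 in knockout and control embryoid bodies. All of these profiles are set mainly by the gap between teratomas and embryoid bodies, and 4 arrays place many genes close together.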

How the data were processed

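Transcripts were measured in 4 RNA samples, 1 array per group, so no test was run. The authors deposited log2 values per probe set, made with affy and RMA per the submitters' processing notes. RMA corrects background, normalizes between arrays and summarises probes. Amplified, biotin-labelled RNA (250 ng) was hybridised. The sources used here give no versions and do not say whether the 4 arrays were normalized as 1 set. Of 45101 probe sets, 64 were controls. Of the rest, 34945 named 1 gene in the platform annotation, 932 several and 9160 none, and only the first were used. Symbols were checked through Entrez numbers against RefSeq GRCm38.p6 (34741 matched, 0 changed).

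Each gene was read by its brightest probe set on average. Values below an array's floor, the median of its non-control probe sets, were set to the floor, and a difference is then a bound. No difference is given where both arrays lay below it or the bound pointed the other way. A call is an absolute log2 difference of at least 1, which is a fold of 2. Alternatives covered the probe set, scaling, floor and threshold. The members and lists were chosen with earlier results of these data known. All 10 members are named. Of each of the 6 lists, up to 6 genes with the largest difference may be named, and Nog and Smad9 were named after their values were seen. Scripts used Python 3.11.15, pandas 2.3.3 and numpy 2.4.6 and were tested on simulated data. The simulated differences lay only in bright genes, between knockout and control, and were the same for all probe sets of a gene. Recovery was therefore not checked for floored values or for probe sets that disagree.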

Additional observations from a re-analysis of the deposited data

Results flagged for a closer look

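Id2 was the member whose knockout difference had opposite signs in the 2 settings while both arrays of each lay above the floor. It differed by 0.34 in teratomas and by -0.29 in embryoid bodies, with 1 array per group, so the difference between settings was not tested. Its second bright probe set gave 0.25 and -0.34, and the dim remaining one gave at least 0.51 in teratomas and 0.46 in embryoid bodies.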

How the results depend on the processing

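No paired analysis was possible because each group has 1 array, and for the same reason no array could be left out. Over 7 alternatives for probe set, scaling and floor, 249 of 267 recomputed member differences moved by less than the spread between probe sets, and no called difference changed sign. That spread was 0.28 in teratomas and 0.29 in embryoid bodies for knockout differences. Between settings it was wider, at 0.65 in knockout and 0.66 in control cells. Part of the count was fixed in advance: 5 genes have a single probe set, so averaging cannot move them. A changed floor alters only values below the old or the new floor. In embryoid bodies the count of genes lower in the knockout was 0 with the mean of probe sets and 0 without shared-sequence probe sets, in place of 1, because Msx1 was then at -0.90 and -0.31. With a call at 3-fold it was 0, as was the count higher. In teratomas a call at 1.5-fold gave 1 lower in place of 0. With the mean of probe sets, the median teratoma minus embryoid body difference in knockout cells was -1.06 in place of -1.71, and Msx2 was under 2-fold, at -0.37 in knockout and -0.45 in control cells. That mean for Msx2 includes its second probe set, which lay below the floor on all 4 arrays and pulls the average towards the floor. With the floor at the 65th percentile, Msx2 was at -0.92 in knockout cells, and with no floor at -3.21 in knockout and -3.92 in control cells. Without shared-sequence probe sets, Id1 has no value, and Id2 in embryoid bodies was 0.46. Centring arrays on their medians moved the median of all genes between settings to -0.46 in knockout and -0.55 in control cells, and the calls to 2036 higher and 3786 lower, and 1533 and 4100, in place of 2566 and 2564, and 2098 and 2456. Id3 in knockout cells (-1.21) and Id2 in control cells (-1.34) were then called lower, and Id4 stayed higher at 1.92 and 2.99. A low signal limits Msx2 and Smad6 in teratomas.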
